A study of Mus musculus with 6 samples.

Results

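The 9 genes described here are transcriptional targets of Notch: Hes1, Hes5, Hey1, Hey2, Heyl, Nrarp, Dtx1, Ptcra and Il2ra. They were taken as a given list, and all 9 were among the 22180 genes that had a value and among the 13308 genes bright enough to be tested. They were measured in common lymphoid progenitors, early bone marrow cells that can still form T, B and natural killer cells, sorted as low for lineage markers, positive for Kit, Sca and CD127, and negative for Thy1.2 and Ly6D. The 3 mutant samples came from OcnCre+;iDTR+/- mice, in which the osteocalcin promoter drives Cre and so places a diphtheria toxin receptor on mature bone-forming cells. The 3 control samples came from OcnCre-;iDTR+/- mice, which carry the receptor allele without Cre. Mice of both genotypes were 6 to 8 weeks old and were injected with the toxin daily for 4 weeks, so exposure to toxin and the iDTR allele are shared by the groups. The labels do not say whether a sample was 1 mouse or a pool, and p-values therefore measure the spread between these samples only.

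Notch receptors are cut when they bind a Delta or Jagged ligand on a neighbouring cell. The freed intracellular part enters the nucleus, joins the DNA-binding protein RBPJ and a Mastermind coactivator, and switches on target genes. Among these are the HES and HEY repressors, the feedback regulators NRARP and Deltex, and, in cells that enter the T lineage, the pre-T receptor chain gene Ptcra and the IL-2 receptor chain gene Il2ra. Notch signalling directs early lymphoid cells to the T lineage and away from the B lineage. The comparison asks whether progenitors from marrow depleted of osteocalcin-expressing cells carry different levels of these transcripts.

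The promoters of these genes are shown because Notch acts on its targets through the DNA-binding protein RBPJ. RefSeq windows of 300 bases, from 250 before to 50 after the gene start, were matched by symbol for 6 of the 9 genes (GRCm38.p6), and Hes1, Hey1 and Heyl had no entry. The letters GTGGGAA, the form of the RBPJ site searched, were present on either strand in 6.38% of all 32851 windows, and at least 2 matches were present in 0.256%. Hes5 and Hey2 each held 2 such matches in opposite orientations. The windows with a match of GTGGGAA or of the E box CACGTG are given 5′ to 3′ on the gene's strand, with the matches in capitals; TTCCCAC is GTGGGAA read on the other strand.
Hes5, chr4:154960673-154960972, plus strand: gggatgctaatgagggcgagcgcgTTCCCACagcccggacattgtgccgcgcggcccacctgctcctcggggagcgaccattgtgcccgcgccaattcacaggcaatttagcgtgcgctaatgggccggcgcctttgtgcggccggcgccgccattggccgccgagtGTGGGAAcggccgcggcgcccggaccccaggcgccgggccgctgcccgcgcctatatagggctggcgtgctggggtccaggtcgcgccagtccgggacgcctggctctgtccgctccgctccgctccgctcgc
Hey2, chr10:30842734-30843033, minus strand: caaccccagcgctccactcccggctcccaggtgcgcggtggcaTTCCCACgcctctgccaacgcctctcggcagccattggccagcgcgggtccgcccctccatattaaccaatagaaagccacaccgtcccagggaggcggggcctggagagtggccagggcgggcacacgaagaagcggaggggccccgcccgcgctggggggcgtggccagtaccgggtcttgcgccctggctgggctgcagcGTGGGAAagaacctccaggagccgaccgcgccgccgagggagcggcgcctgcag
Nrarp, chr2:25180508-25180807, plus strand: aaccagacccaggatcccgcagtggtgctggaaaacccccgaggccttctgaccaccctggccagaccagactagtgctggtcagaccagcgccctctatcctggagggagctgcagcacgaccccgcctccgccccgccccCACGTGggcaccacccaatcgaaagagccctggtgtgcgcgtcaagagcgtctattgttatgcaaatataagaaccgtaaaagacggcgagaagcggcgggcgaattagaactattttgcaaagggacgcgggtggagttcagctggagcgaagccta

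In Hes5 the matches began 226 and 83 bases before the gene start, 143 bases apart. In Hey2 they began 207 and 4 bases before it, 203 bases apart. The Nrarp window held no GTGGGAA and 1 CACGTG, which began 108 bases before the start and is present in 7.15% of windows. The shorter core TGGGAA, which lies within GTGGGAA and is present in 25.6% of windows, was found 2 times in Ptcra, and starts 84 and 32 bases before the gene start. Dtx1 and Il2ra held none of these letters in their windows. The windows were GC-rich in Hes5 (72.7%) and Hey2 (72.0%) and had a GC content of 42.7% in Il2ra. A match is a description of the sequence and not a measured binding site. Sequence outside these windows was not searched.

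None of the 9 Notch target genes changed past the adjusted threshold between mutant and control progenitors. The mutant mean was higher for 4 genes (Hes1, Hes5, Hey1 and Ptcra) and lower for 5 (Hey2, Heyl, Nrarp, Dtx1 and Il2ra), and the median difference was -0.02 on the log2 scale, against -0.04 over all tested genes. Of all tested genes 42.5% were higher and 57.5% lower. All values are log2 intensities made with RMA, which gives no call of detection, and a dim gene therefore cannot be told from background. The deposited arrays were not fully alike in level. The mean over all tested genes was 6.54, 6.55 and 6.55 on control replicates 1 to 3 and 6.57, 6.42 and 6.48 on mutant replicates 1 to 3. The test was limma with Benjamini-Hochberg adjustment over 13308 genes, at a threshold of 0.05. It called 0 of the 9 genes and 0 genes in all (0%). At an unadjusted p under 0.05, 0 of the 9 genes passed, beside 1068 of all tested genes (8.03%). In a fit without limma's pooling of the spread 0 genes passed after adjustment as well, and Hes1 and Hey1 had an unadjusted p of 0.0408 and 0.0433 (adjusted p = 0.676 for each). Adjusted p ran from 0.594 for Hey1 to 0.953 for Hey2. Mutant values lay wholly above control values for 2 of the 9 genes, Hes1 and Hey1, beside 5.4% of all tested genes. They lay wholly below for 0 of the 9, beside 9.99%. In bulk RNA fewer cells that hold a transcript and less of it per cell cannot be told apart.

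**Figure D1:**
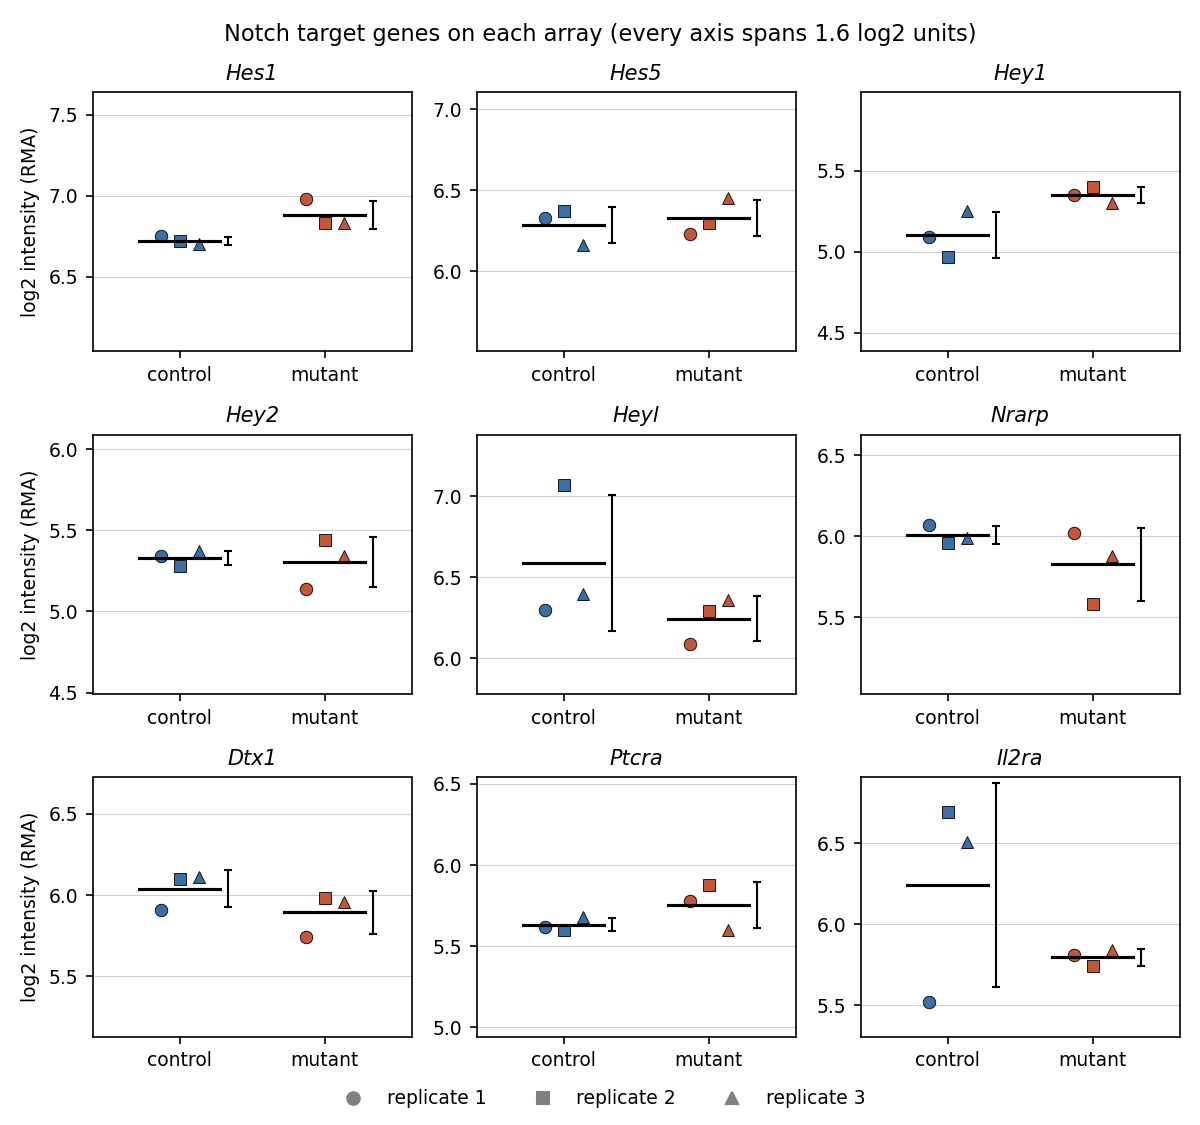
Log2 intensity (y axis, RMA) of each Notch target gene on the 3 control and 3 mutant arrays, with the replicate given by the symbol, the mean as a line and the SD as a bar beside it. Each axis spans the same number of log2 units; the groups are apart only for Hes1 and Hey1, and control replicates 2 and 3 stand high for Il2ra.

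Hes1 encodes the repressor that is the best known direct Notch target in early lymphoid cells. Control replicates 1 to 3 read 6.75, 6.72 and 6.70, and mutant replicates 1 to 3 read 6.98, 6.83 and 6.83; values of the other genes are given in the same order. The groups did not overlap, and the lowest mutant value stood 0.08 above the highest control value. The controls were unusually alike, with an SD of 0.03 against a median control SD of 0.12 over all tested genes. The difference was 0.15 ± 0.11 (SE, n = 3 each; 95% interval -0.10 to 0.41), a fold of 1.11 with an interval of 0.934 to 1.33. It did not pass (limma adjusted p = 0.624), and the exact permutation test over the arrays gave p = 0.1, the smallest that 3 against 3 arrays can give. Genes of like brightness leaned the other way. The 500 tested genes nearest to Hes1 in mean level had a median difference of -0.11, which leaves 0.26 for Hes1 relative to them. The Hes1 groups stayed apart when arrays were quantile normalized again, put through cyclic loess or centred on their medians, with differences of 0.24, 0.24 and 0.21, and on none of these scales did it pass the adjusted threshold (adjusted p = 0.722, 0.723 and 0.595).

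Hey1 encodes a repressor of the related HEY family, known mainly from vessels and heart. Its values were 5.09, 4.97 and 5.25 in the controls and 5.35, 5.40 and 5.30 in the mutants. The groups did not overlap, by a gap of 0.05, and the difference was 0.25 ± 0.12 (SE; 95% interval -0.03 to 0.52; limma adjusted p = 0.594). Its exact permutation p was also 0.1. In the range of brightness of Hey1 the mutant arrays were higher in general: the nearest 500 genes had a median of 0.09, leaving 0.16. After repeated quantile normalization or cyclic loess the lowest mutant and highest control values of Hey1 met (5.27 and 5.27, and 5.27 and 5.28), and the groups were no longer apart. When arrays were centred on their medians the Hey1 groups stayed apart, at 5.07, 4.94 and 5.22 in controls and 5.31, 5.48 and 5.35 in mutants. The difference on that scale was 0.30 and did not pass (limma adjusted p = 0.594).

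The other HES and HEY genes showed no separation. Hes5, a repressor close to Hes1 whose promoter carries a pair of GTGGGAA matches, was at 6.33, 6.37 and 6.16 in controls and 6.23, 6.30 and 6.45 in mutants, a difference of 0.04 ± 0.12 (SE). The second, dimmer Hes5 probe set differed by -0.14 ± 0.16, and the probe sets ran against each other over the 6 arrays (Pearson r = -0.69), so that neither gives a direction for Hes5. Hey2, the other gene with a pair of matches, was at 5.34, 5.28 and 5.37 in controls and 5.14, 5.44 and 5.34 in mutants, a difference of -0.02 ± 0.12. Mutant replicates 1 and 2 held the lowest and the highest Hey2 value of the 6 arrays. The 95% interval was -0.24 to 0.32 for Hes5 and -0.30 to 0.26 for Hey2, which are folds of 0.848 to 1.25 and of 0.811 to 1.20.

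Heyl had the second largest difference of the 9, and 1 control array set most of it. The controls read 6.30, 7.07 and 6.40 and the mutants 6.09, 6.29 and 6.36. Control replicate 2 stood 0.77 above the lowest control, control replicate 1 lay within the range of the mutants, and control replicate 3 just above it. The difference of -0.34 ± 0.21 (SE; limma adjusted p = 0.604) became -0.10 without control replicate 2 and -0.49 without control replicate 1.

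**Figure D2:**
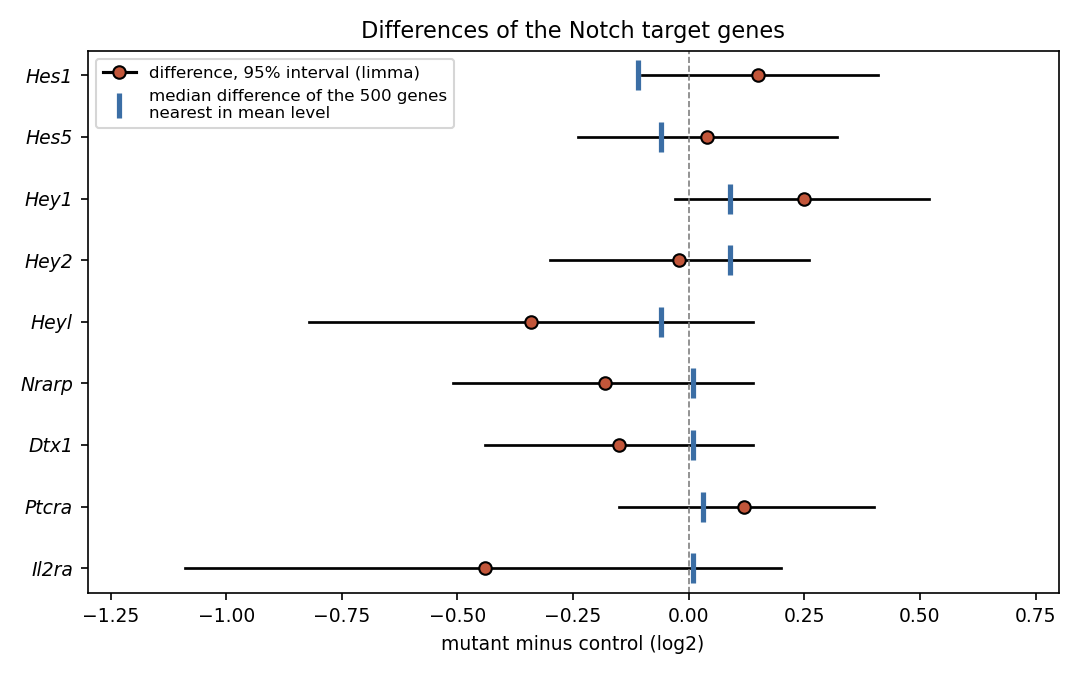
Mutant minus control (x axis, log2) for each Notch target gene: points are differences and bars 95% intervals from limma, with 3 arrays a group. All 9 intervals span 0, and the blue ticks, the median difference of the 500 genes nearest in mean level, run from -0.11 beside Hes1 to 0.09 beside Hey1 and Hey2.

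Nrarp and Dtx1 are feedback genes that Notch switches on. NRARP, a small ankyrin repeat protein, binds the Notch complex on DNA and promotes loss of the Notch intracellular part. Nrarp was at 6.07, 5.96 and 5.99 in controls and 6.02, 5.58 and 5.88 in mutants. Mutant replicate 1 lay among the controls and mutant replicate 2 was lowest, and the difference of -0.18 ± 0.14 (SE; limma adjusted p = 0.641) was -0.06 without mutant replicate 2. That array correlated at 0.922 to 0.938 with the other 5 over all tested genes, where those correlated at up to 0.989 among themselves. Dtx1 encodes Deltex, a ubiquitin ligase that acts on Notch. Dtx1 was at 5.91, 6.10 and 6.11 in controls and at 5.74, 5.98 and 5.96 in mutants, which overlapped through control replicate 1. The difference was -0.15 ± 0.13 (SE; limma adjusted p = 0.663). The dimmer of its probe sets, whose mean of 4.12 was below the 4.84 needed for testing, went the other way, with 4.05 in controls and 4.18 in mutants (0.13 ± 0.19), and the pair had r = -0.45 over the arrays. Hes1 and Dtx1 moved oppositely over the 6 arrays (Pearson r = -0.90, the lowest of the 36 pairs of these genes, given as a description and with the group difference included).

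Ptcra and Il2ra mark the T lineage steps that follow Notch signalling in the thymus. Ptcra, the chain that pairs with the T receptor beta chain, was at 5.62, 5.60 and 5.68 in controls and 5.78, 5.88 and 5.60 in mutants. Mutant replicates 1 and 2 were above all controls and mutant replicate 3 was level with the lowest control. The difference was 0.12 ± 0.12 (SE; limma adjusted p = 0.700).

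Il2ra encodes CD25, which marks early thymocytes and, in mouse marrow, also pre-B cells. It had the largest difference of the 9 and the widest spread. The controls read 5.52, 6.69 and 6.51 and the mutants 5.81, 5.74 and 5.84. The mutant arrays were nearly equal, with a range of 0.11, while the controls spanned 1.16 and control replicate 1 was the lowest of all 6 arrays. The mean went from 6.24 ± 0.63 to 5.79 ± 0.05 (SD), a difference of -0.44 ± 0.28 (SE; 95% interval -1.09 to 0.20; fold 0.735; limma adjusted p = 0.606). Of all tested genes 6.49% differed by more than this in either direction. Without control replicate 1 the difference was -0.80 and without control replicate 2 it was -0.22, and it did not pass in either case (limma adjusted p = 0.634 and 0.891).

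Part of the B lineage genes and of the sort genes were high on the same arrays as Il2ra. Control replicates 2 and 3 lay above the other 4 arrays in 5 of 7 tested B lineage markers (Cd79a, Cd79b, Vpreb3, Igll1 and Blnk). They did so in 2 (Il7r and Ly6d) of 4 sort genes counted, the others being Kit and Thy1, and in 15.0% of all tested genes. The gene of the sort marker Sca was not in this count. The mean log2 level of the 7 tested of 10 listed B lineage markers was 9.77, 10.25 and 10.15 in the controls and 9.91, 9.84 and 9.68 in the mutants. Ly6d, the surface marker that the sort excluded and that rises with B lineage entry, read 7.18, 8.14 and 8.25 in controls, 7.57 and 7.30 in mutant replicates 1 and 2, and was lowest of all in mutant replicate 3. Igll1, a surrogate light chain gene of the pre-B receptor, was at 10.78, 11.23 and 11.10 and then 10.89, 10.43 and 10.54. Il7r, the gene of the sort marker CD127, was at 9.81, 10.35 and 10.16 and then 9.80, 9.72 and 9.78. Other genes of these lists went differently. Ebf1 and Pax5, transcription factor genes of the B lineage, were highest in mutant replicate 2 (10.02 and 8.80). Among the sort genes Kit was highest in control replicate 1 (7.41) and Thy1 in control replicate 3 (7.31), with control replicate 2 the lowest control for Thy1 (6.75). Among the listed T lineage markers 7 of 10 were tested, with a mean level of 5.33, 5.57 and 6.18 in controls and 5.71, 5.31 and 5.47 in mutants, so their highest array was control replicate 3. The part of either lineage in the Il2ra difference was not tested. The pattern, and Ly6d and Igll1 as examples of it, were picked after the values were seen.

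**Figure D3:**
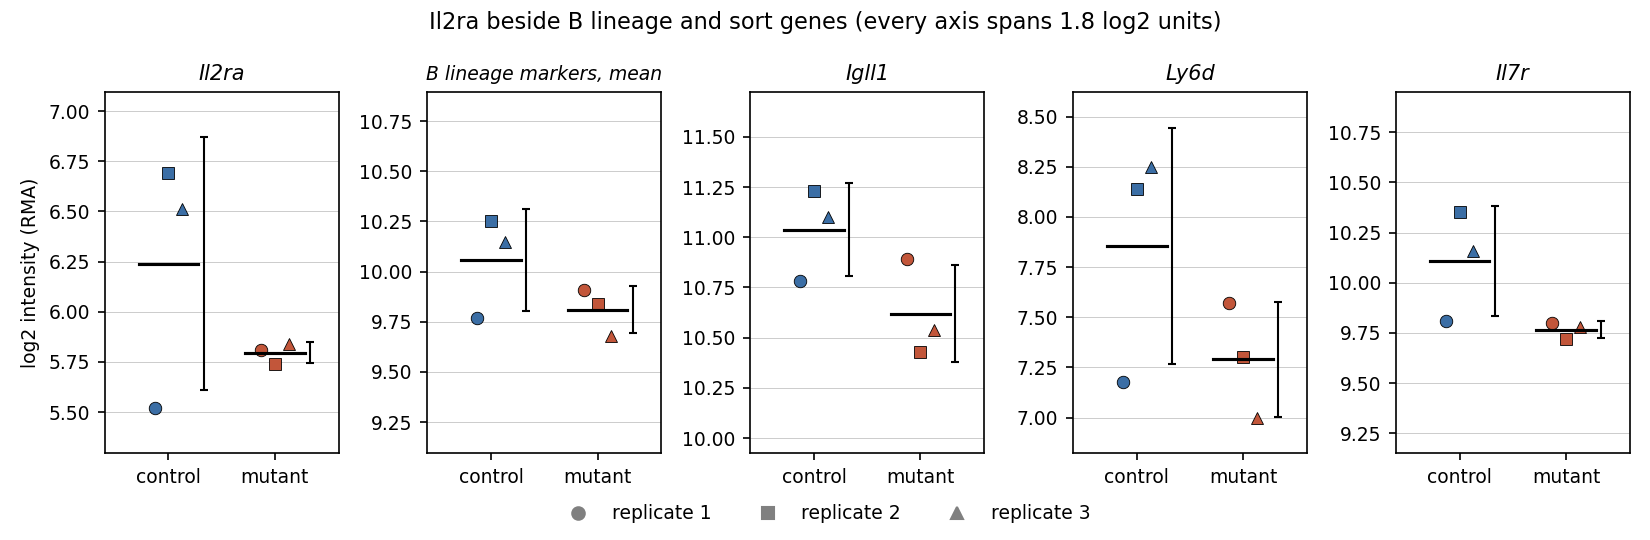
Log2 intensity (y axis, RMA) of Il2ra, the mean of 7 B lineage markers, Igll1, Ly6d and Il7r on each array; symbols give the replicate, lines the mean and bars the SD. In these panels, chosen after the values were seen, control replicates 2 and 3 lie above control replicate 1 and above all 3 mutant arrays.

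The arrays also fell into 2 sets, neither of which matched a genotype. Eif2s3y, a Y-linked gene, was low in control replicate 1 (4.88) and mutant replicate 3 (4.77) and lay between 7.31 and 7.85 on the other 4 arrays. The X-linked gene Xist was highest on control replicate 1 (11.04) and mutant replicate 3 (10.72). The other 4 arrays were not uniform in Xist, with 8.07 and 6.57 on control replicates 2 and 3 and 8.03 and 5.57 on mutant replicates 1 and 2. The sex of the mice behind each array was not tested. Within the 4 arrays with high Eif2s3y, Hes1 differed by 0.19 and Hey1 by 0.26, and between the arrays with low Eif2s3y by 0.08 and 0.21. Nrarp differed by -0.18 and -0.20 in these sets. Il2ra differed by -0.83 in the first set and 0.32 in the second, Heyl by -0.54 and 0.06, Dtx1 by -0.25 and 0.05, and Ptcra by 0.20 and -0.02. Hes5 differed by 0.01 and 0.11 and Hey2 by -0.03 and 0.01. The second set holds 1 array per group, so it gives no test. With Eif2s3y level as a block, limma called 0 of the 9 genes and 0 of all genes, and at an unadjusted p under 0.05 it counted 0 of the 9 and 966 of all.

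**Figure D4:**
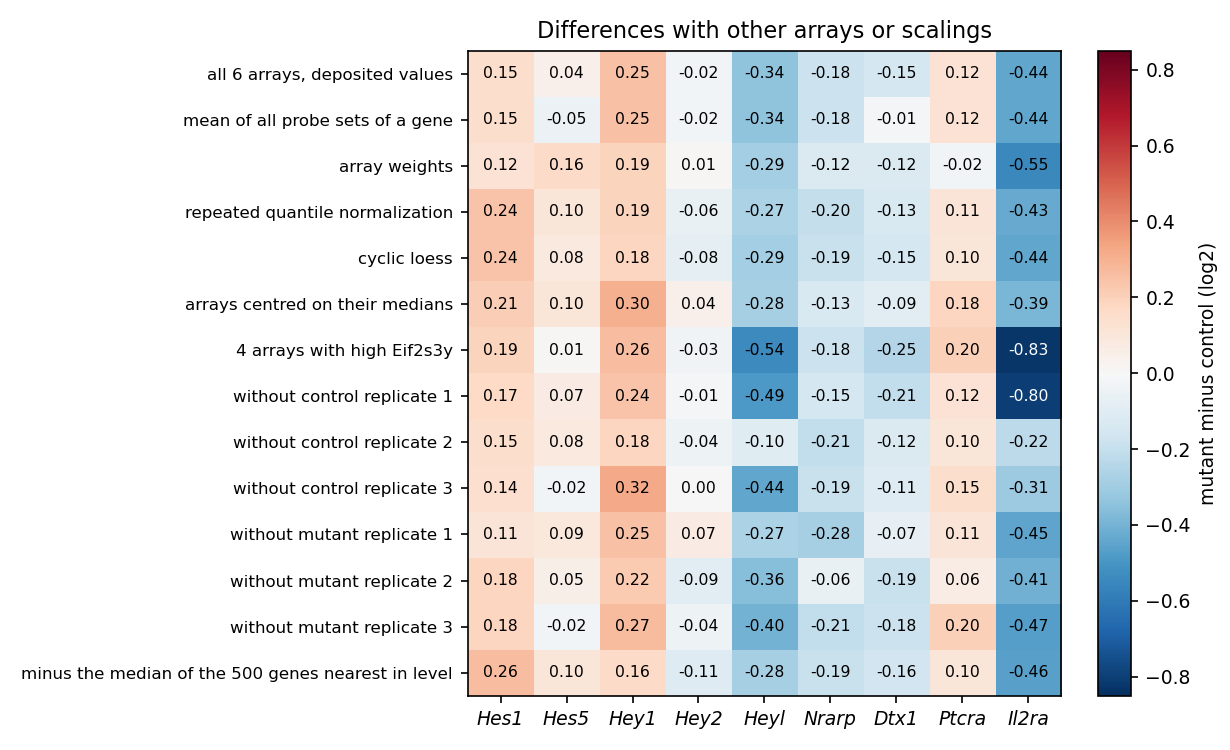
Mutant minus control (colour and number, log2) for each Notch target gene (columns) with all 6 arrays and under other scalings or sets of arrays (rows). Hes1, Hey1, Heyl, Nrarp, Dtx1 and Il2ra keep their sign in the rows shown, where Il2ra ranges from -0.83 to -0.22. The pair of arrays with low Eif2s3y is not drawn, and there Il2ra (0.32), Heyl (0.06) and Dtx1 (0.05) have the opposite sign. Dimmer probe sets alone are not drawn either, and that of Dtx1 (0.13) also has the opposite sign.

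Markers of other blood cells varied by array. Myeloid markers (10 of 10 tested) had a mean level of 9.46, 8.53 and 8.92 in controls and 9.61, 8.78 and 9.07 in mutants. Megakaryocyte markers (4 of 5 tested) were at 5.78, 5.25 and 5.44 and then 5.82, 5.54 and 5.75. Control replicate 1 and mutant replicate 1 were thus the highest of their groups in both lists, and mutant replicate 1 also held the highest Hes1 value, while control replicate 1 did so among the controls. The other arrays did not keep this order. Control replicate 2 was the lowest control in both lists, while for Hes1 it was control replicate 3 (6.70, against 6.75 and 6.72). Mutant replicates 2 and 3 both read 6.83 for Hes1 but differed in both lists. The part of other blood cells in the Hes1 values was not tested. Without mutant replicate 1, the Hes1 difference was 0.11. The labelled tissue is bone marrow stroma although the cells are sorted progenitors. Of 12 listed bone and stromal markers 9 had a value, and 6 of these were bright enough to be tested. The mean level of the 6 was 5.85, 5.96 and 5.95 in controls and 5.85, 6.02 and 5.94 in mutants. Their median difference was 0.02, which compares the groups and does not show whether stromal cells were present.

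The machinery upstream of these targets was measured on the same arrays. No tested gene of the pathway passed the adjusted threshold (0 of 46 component genes, of 56 listed). An unadjusted limma p under 0.05 was found for 2 of the 46, beside 8.03% of all tested genes. The mutant mean was higher for 19 and lower for 27, beside 42.5% higher and 57.5% lower over all tested genes. The median difference was -0.05 beside -0.04 over all genes. Mutant values lay wholly above control values for 1 of the 46 and wholly below for 7, or 15.2%, beside the 5.4% and 9.99% of all tested genes given above.

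Of the receptor genes, Notch1, the receptor needed for T lineage entry, had a control mean of 7.37 ± 0.09 and a mutant mean of 7.22 ± 0.18 (SD, n = 3 each). Notch2 was at 6.36 ± 0.20 and 6.31 ± 0.13, and Notch3, itself a Notch target, at 4.96 ± 0.01 and 5.24 ± 0.23. The ligand gene Dll4 was at 4.99 ± 0.16 and 5.20 ± 0.10, near the limit for testing. These values describe the progenitors, and not the bone cells that were deleted. Among the genes that add sugars to Notch, Lfng, whose product favours binding of Delta ligands, read 7.75, 7.91 and 7.79 in controls and 8.01, 8.05 and 7.97 in mutants. It was the 1 component gene whose mutant values were all above its control values, and its difference of 0.19 ± 0.11 (SE) did not pass (limma adjusted p = 0.598). Ogt was counted in the same list, although it is a general sugar transferase of many nuclear and cytosolic proteins and not particular to Notch. It had the lowest p of the 46 component genes, at 9.18 ± 0.25 and 8.50 ± 0.11 (SD; difference -0.68 ± 0.15, SE; limma adjusted p = 0.594). Of the cleavage genes Adam17 differed by -0.30 ± 0.15 and Aph1a, a subunit of gamma-secretase, by 0.18 ± 0.18.

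Rbpj, the DNA-binding partner of Notch, averaged 6.77 ± 0.11 in controls against 6.89 ± 0.14 in mutants (SD), and its cofactor gene Snw1 differed by -0.18 ± 0.11 (SE). Among corepressors Hdac1, a histone deacetylase that RBPJ recruits when Notch is off, was at 9.44 ± 0.07 and 8.74 ± 0.45 (difference -0.70 ± 0.21), and Tle3, a Groucho family gene, differed by 0.17 ± 0.15. Genes of Notch turnover were evenly divided, with 4 of 8 tested higher and 4 lower, such as the ubiquitin ligase genes Mib1 (0.13 ± 0.18) and Itch (-0.25 ± 0.16).

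Relatives of the 9 genes and other genes that Notch regulates in lymphoid cells gave the same lack of calls. Of 16 tested other Notch-regulated genes (18 listed), the mutant mean was higher for 6 and lower for 10, beside 42.5% and 57.5% of all tested genes. Their median was -0.18 beside -0.04 over all genes, and 0 passed. Cdkn1a, a cell cycle inhibitor gene that p53 also controls, was at 8.56 ± 0.21 and 7.77 ± 0.54 (SD; difference -0.79 ± 0.26, SE), and Bcl11b, a T lineage commitment gene, at 5.34 ± 0.10 and 5.57 ± 0.03. Mutant values were all above control values for 1 of the 16, Bcl11b (6.25%, beside 5.4% of all tested genes), and all below for 2, Hes6 and Il7r (12.5%, beside 9.99%). Hes6, which unlike Hes1 is known to oppose HES1, differed by -0.23 ± 0.11 and Hes7 by 0.09 ± 0.11. The deltex genes Dtx2 and Dtx4 differed by -0.25 ± 0.12 and 0.11 ± 0.12. Il2rb, the beta chain of the IL-2 receptor, was at 5.62 ± 0.43 and 5.36 ± 0.20, and control replicate 3 (6.11) stood above the other controls (5.41 and 5.34).

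**Figure D5:**
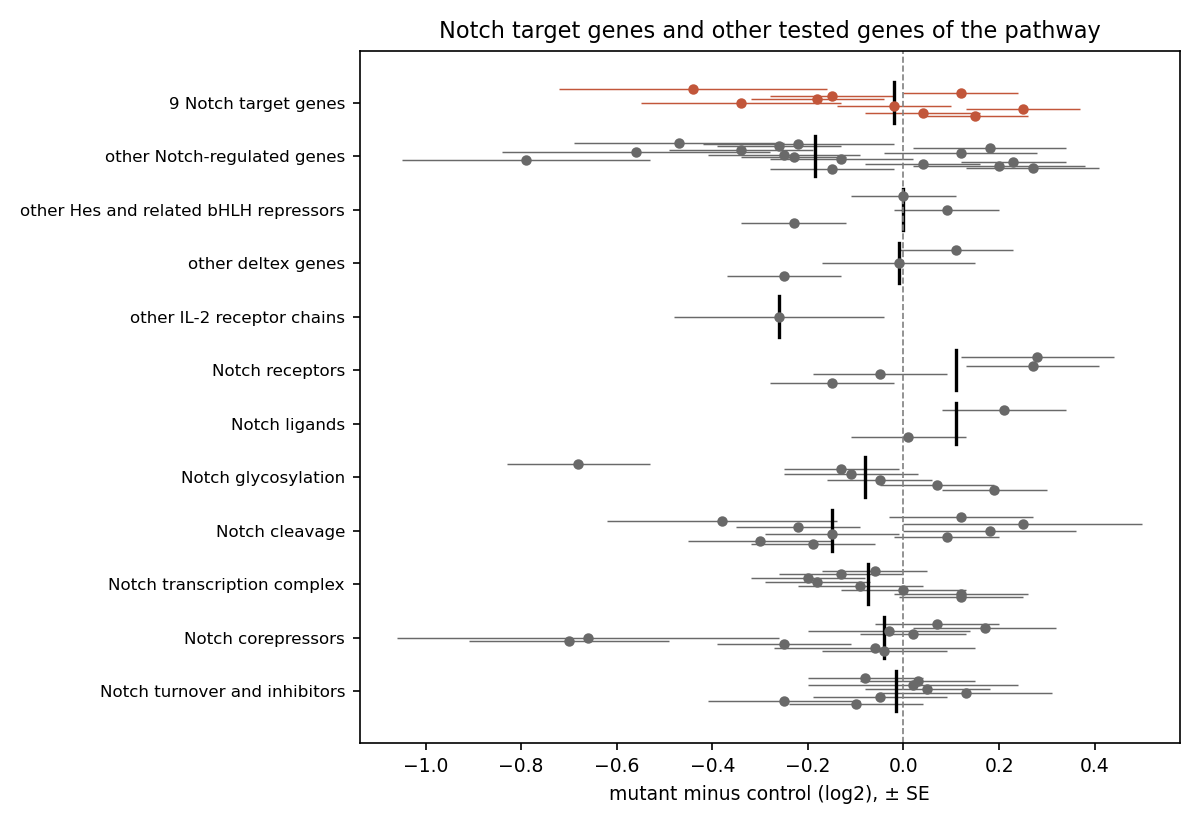
Mutant minus control (x axis, log2, bars are SE from limma) for the 9 Notch target genes and the other tested genes of the pathway by role, with the median of each list as a black line. The 9 genes scatter around a median of -0.02, and no gene shown passed the adjusted threshold.

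Other genes shared the array patterns of single targets. Over the 6 arrays, the genes most like Hes1 were Aldh3a2, an aldehyde dehydrogenase gene (Pearson r = 0.982), Irs2, an insulin receptor substrate gene (0.976), and Bola1 (0.970). Irs2 was at 5.93, 5.97 and 5.83 in controls and 6.81, 6.25 and 6.13 in mutants, with its highest value in mutant replicate 1, as for Hes1. The genes most like Nrarp were Nup43 (0.998), Las1l (0.997) and Dimt1 (0.996), all lowest in mutant replicate 2, and 588 of the tested genes had r above 0.95 with Nrarp, against 20 with Hes1. Depp1 (0.985), Tmem135 (0.968) and Lpar2 (0.967) were most like Dtx1. Nxpe3 (0.996), Sp4 (0.989) and Dync1li2 (0.984) were most like Il2ra, and Nxpe3 was at 6.17, 6.80 and 6.72 in controls and 6.35, 6.24 and 6.32 in mutants. These r values are descriptions, found by searching all tested genes over 6 arrays, and include any difference between groups.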

How the data were processed

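RNA of 6 sorted samples, extracted with Trizol, amplified by the NuGEN Ovation process and biotin-labelled per the labels' protocols, was hybridized to 1 Affymetrix array each. The authors deposited log2 intensities; RMA is the tool that the submitters' processing notes name. Its version is not given in the sources used here, nor is the genome build behind the probe sets. Of 41345 probe sets, 23521 carried 1 gene symbol in the platform annotation, 1814 carried several and 16010 none. The brightest probe set by mean represented each of 22180 genes, and the lowest 40% (under 4.84) were not tested. Mutant was compared with control over 13308 genes by linear models and moderated 2-sided tests in limma 3.58.1 (R 4.3.3), with p-values adjusted by Benjamini and Hochberg's method and called under 0.05, after a check of the script on simulated data. Intervals are 95% intervals from that fit. Figures were drawn with matplotlib 3.10.9. Groups and replicate numbers come from the sample titles.

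The members, lists and alternatives were chosen with earlier results of these data known. All 9 genes were named. For each pathway list the tested gene with the lowest p in each direction was named, with Notch1, Notch2, Rbpj, Dll4, Il7r and Il2rb always. The 3 genes most like Hes1, Nrarp, Dtx1 and Il2ra were named, leaving out predicted, microRNA and small nucleolar RNA genes. The alternatives covered filters, probe sets, variance priors, array weights, scalings, blocks and arrays left out. The precision is limited by 3 arrays per group.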

Additional observations from a re-analysis of the deposited data

How the results depend on the processing

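No alternative brought any of the 9 genes past the adjusted threshold. Over all genes the count of calls was 0 with the deposited values and 2960 with array weights. The weights were 0.36, 0.21 and 5.20 on mutant replicates 1 to 3, so mutant replicate 3 set most of the weighted mutant mean. That setting is therefore far from an even comparison of 3 against 3 arrays. The count was between 0 and 4 when 1 array was left out, 4 without mutant replicate 1 and 1 without mutant replicate 2. The lowest adjusted p of any of the 9 was 0.0708, for Il2ra with array weights. Before adjustment, the limma p of Il2ra was 0.0195 with array weights, 0.0033 in the 4 arrays with high Eif2s3y and 0.0007 without control replicate 1. That of Hes1 was 0.0384 with repeated quantile normalization and 0.0387 with cyclic loess, and that of Hey1 0.0407 with centred arrays. In these settings, in the order given, 5087, 487, 913, 880, 908 and 1031 of all tested genes had an unadjusted p under 0.05. The median difference of the 9 genes, -0.02, was -0.17 for the 6 genes left when the lowest 60% were not tested, -0.06 with repeated quantile normalization, -0.08 with cyclic loess and 0.04 when arrays were centred on their medians. It ran from -0.06 to 0.07 when 1 array was left out. The stricter filter removed 3 genes, Hey1, Hey2 and Ptcra. Centring subtracts 1 value per array, and so moved the difference of every gene by the same amount. The cause of the other shifts was not tested. Of 170 alternative values of single genes 10 changed sign. Hes5 was at -0.05 as the mean of its probe sets, at -0.14 in its dimmer probe set alone and at -0.02 to 0.09 on leaving out 1 array. Hey2 was at 0.01 with array weights, 0.04 with centred arrays and -0.09 to 0.07 on leaving out 1 array. Ptcra was at -0.02 with array weights, and Dtx1 at 0.13 in its dimmer probe set and -0.01 as the mean of its probe sets.

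Replicate numbers are shared between the groups by the titles, but same-numbered arrays did not all deviate together (r = 0.13, 0.20 and -0.13 over genes), and control replicate 1 was closest to mutant replicate 3 (0.20). With the replicate block limma called 0 of the 9 genes and 0 genes in all, and the median stayed at -0.02.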
